A study of Mus musculus with 9 samples.

Results

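Distal mouse chromosome 2 carries a dense array of zinc finger genes, and their messenger RNA was measured here in the hippocampus of lupus-prone and control mice. The array was taken as a window of 3.3 Mb around Gm14305 on chromosome 2 in the GRCm38 build, in which the members start between positions 175010241 and 178118975. Its members were the protein-coding genes that start in this window and reached a summed count of at least 10 over the 9 libraries. This rule kept 30 of the 46 protein-coding genes of the window, out of 47643 genes counted, and 10 of the other 16 had no count in any library. The members just inside the threshold were Gm2026 and Gm14444 with 11 counts each and Zfp973 with 13, whereas Gm14406 with 7, Gm14409 with 6 and Gm14401 with 5 fell just outside it. The members were thus selected on their summed count, and the window was drawn around Gm14305 with the values of that gene in these libraries known.

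Zinc finger proteins of the C2H2 type bind DNA through a row of short modules, each folded around a zinc ion held by a pair of cysteines and a pair of histidines. Many of the mouse genes of this type also encode a KRAB domain, which recruits the corepressor Trim28 and, through it, enzymes that deposit repressive histone marks. Such genes arise by tandem duplication, lie in arrays and differ between mouse strains, and they are best known for silencing transposable elements. The products of the individual members are largely uncharacterised. Phactr3, at the distal edge, departs from the label: it encodes a phosphatase and actin regulator of neurons and is not a zinc finger gene.

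Each library came from the hippocampus of a mouse in postnatal week 6, with 3 libraries per group and poly(A)-selected RNA. MRL/mpj is the MRL strain without the lpr mutation and was labelled wild type and untreated. MRL/lpr mice carry the lpr allele of Fas, an insertion in the gene of a death receptor, which causes lymphoproliferation and a lupus-like disease, and they were also labelled untreated, although the series title names PBS or stem cells for lpr mice. MRL/lpr+MSC mice had the same genotype and were given mesenchymal stem cells, with no dose, route or time in the sources used here. The sample labels name the strain C57BL/6 for all 9 libraries, while the study describes the MRL stocks. The study describes its MRL/mpj and MRL/lpr libraries as single mice. Which of the lpr groups here this covers is uncertain, for the reason given next, and for the other no source used here says so. In that group p-values may measure technical spread only.

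Expression values that accompany the study under the name MRL/lpr were, gene for gene, rescaled from the counts under the label MRL/lpr+MSC, so which of the 2 lpr groups had been treated rests on the sample labels. For this reason both lpr groups are compared with MRL/mpj throughout. These comparisons share the MRL/mpj libraries and are not independent. Total counts ranged from 19475804 to 26912031 per library, and 3 counts, the largest number that a gene at 0 may still hold, corresponded to 0.105 to 0.163 CPM, which is the count relative to the scaled total of its library. Fas itself was at 1.83 ± 0.183 CPM in MRL/mpj, 1.79 ± 0.469 CPM in MRL/lpr and 1.30 ± 0.445 CPM in MRL/lpr+MSC (SD, n = 3), which does not separate the genotypes. The 7 neuronal markers summed to 5648 to 6755 CPM in MRL/mpj, 3727 to 5074 CPM in MRL/lpr and 4199 to 6854 CPM in MRL/lpr+MSC, with 0 called, so that the MRL/lpr libraries lay below the controls. The 4 microglial markers summed to 224 to 247, 177 to 222 and 175 to 204 CPM in the same order, and the 4 striatal markers to 58.1 to 69.6, 97.4 to 125 and 69.3 to 142 CPM, again with 0 called. Choroid plexus markers ranged from 163 to 699 CPM in MRL/mpj, 95.7 to 9528 CPM in MRL/lpr and 98.1 to 4784 CPM in MRL/lpr+MSC. All 4 B and T cell markers together ranged from 0.215 to 0.998 CPM in MRL/mpj, 2.70 to 6.12 CPM in MRL/lpr and 0.207 to 1.02 CPM in MRL/lpr+MSC. Of these 4, 3 were called higher in MRL/lpr and 0 in MRL/lpr+MSC. The 3 endothelial markers summed to 155 to 180, 191 to 213 and 213 to 237 CPM in the 3 groups, with 1 called higher in both lpr groups, and the 4 erythrocyte markers to 56.8 to 163, 51.4 to 99.8 and 27.1 to 146 CPM, with 1 called lower in both. The part of these markers in the results for the array was not tested. In bulk RNA, fewer cells of a type and less RNA per cell cannot be told apart.

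The members resemble each other closely in sequence, which is shown first because it bears on every count. Of the 30 members, 27 had at least 1 stretch in an annotated transcript that codes for a complete finger, that is a cysteine, 2 to 4 residues, a cysteine, 12 residues, a histidine, 3 to 5 residues and a histidine. No such finger was found in Gm14327 and Zfp972, which are counted with the zinc finger members for the transcript sequence they share with other genes of the window, nor in Phactr3. The number of fingers in the best reading frame ran from 3 in Gm14393 to 25 in Gm14295, and Gm14305 had 14. The first finger of 6 members is given below as DNA, from GENCODE transcripts on GRCm38, with the cysteine and histidine codons in capitals. It is shown because it is the same in Gm14305, in Gm14295 and Gm14399, which also differed between the strains, and in Gm14325, which was not called. Gm14403 and Zfp931 differed from it at 3 and 10 of 63 bases.
Gm14305, last exon, chr2:176720629-176720691, plus strand: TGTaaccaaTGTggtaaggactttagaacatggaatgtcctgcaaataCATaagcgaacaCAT
Gm14295, last exon, chr2:176809031-176809093, plus strand: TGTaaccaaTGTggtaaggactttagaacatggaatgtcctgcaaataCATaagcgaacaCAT
Gm14399, last exon, chr2:175131586-175131648, minus strand: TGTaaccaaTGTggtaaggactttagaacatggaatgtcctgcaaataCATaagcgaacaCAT
Gm14325, last exon, chr2:177832913-177832975, minus strand: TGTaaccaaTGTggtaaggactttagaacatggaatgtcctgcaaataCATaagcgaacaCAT
Gm14403, last exon, chr2:177508575-177508637, plus strand: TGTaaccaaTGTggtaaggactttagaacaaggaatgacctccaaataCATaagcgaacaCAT
Zfp931, last exon, chr2:178068217-178068279, minus strand: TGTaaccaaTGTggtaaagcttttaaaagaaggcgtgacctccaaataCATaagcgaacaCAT

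To measure how far reads could be shared, every stretch of 100 bases in the transcripts of a member was looked up in all GENCODE transcripts. Over the 29 zinc finger members, a median of 61.6% of these stretches also occurred in another gene, and in 18 members the share was above 50%. Nearly all partners were other genes of the window. All stretches of Gm14440, Gm14288 and 2210418O10Rik recurred elsewhere, as did 96.1% of Gm4724, 89.5% of Gm6710 and 69.2% of Gm14305, for which the closest partner was Gm14434, a gene of the window with no count. By contrast, Gm14443 shared 0.806% of its stretches, Gm14412 2.77%, Gm14403 4.95% and Zfp931 6.91%. The split of reads between the more alike genes therefore depends on how the counting treated reads with several matches, and counts of those members are uncertain. Zfp973 also overlaps Gm14305 over 10758 bases on the same strand, so that strand would not separate reads of exons they share there. Gm14327 overlaps Zfp972 on the opposite strand over 2445 bases, and Zfp971 overlaps the long noncoding gene Gm26869 on the opposite strand. Without strand, the reads in these opposite overlaps cannot be told apart.

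**Figure D1:**
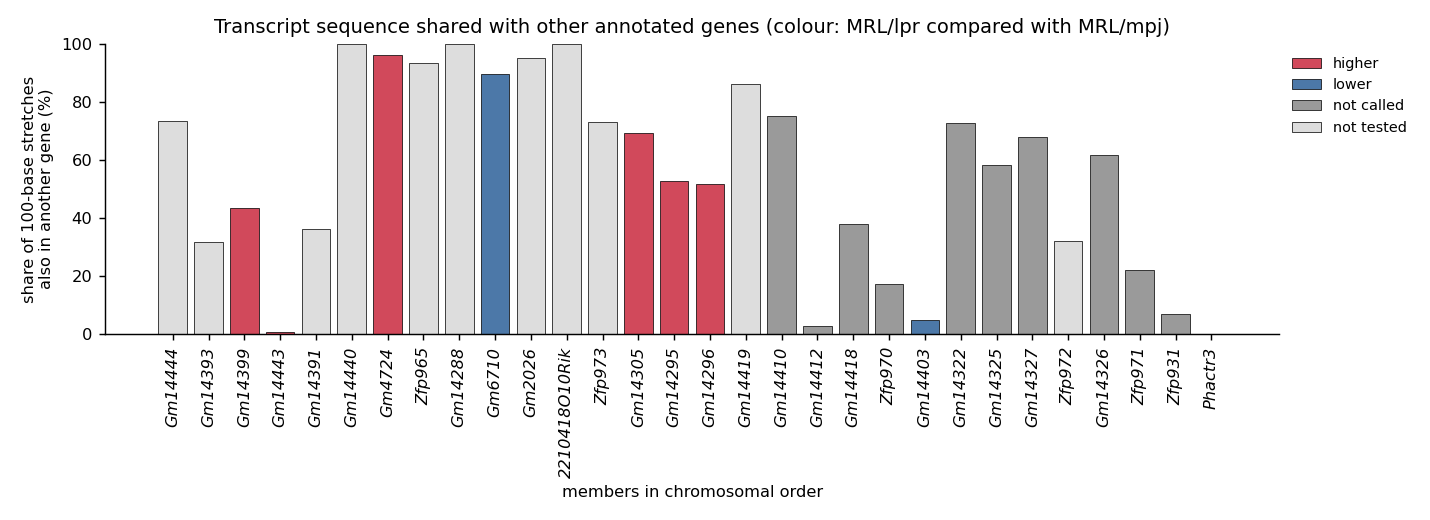
Share of the 100-base stretches of each member (percent, y axis) that also occur in a transcript of another gene, with members in chromosomal order (x axis) and bars coloured by the outcome of MRL/lpr compared with MRL/mpj. Members called higher range from 0.806% in Gm14443 to 96.1% in Gm4724.

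The sequences upstream of the members were as alike. RefSeq, on GRCm38.p6, gave a start site for 22 of the 30 members. Gm14399, Gm14443 and Gm14296, which differed between the strains, were not among them, so the upstream results do not cover these members. Over the 231 pairs of these, the 250 bases before the start were identical at a median of 94.6% of aligned positions, from 50% between Gm14444 and Zfp973 to 100%. The stretch of Gm14444 begins at 175016479, inside its GENCODE gene, which starts at 175010241, so its low identity may not describe a promoter. The stretches below are printed from members that differed between the groups and from members that did not, with CCAAT or its reverse complement ATTGG in capitals.
Gm14305, chr2:176708103-176708352, plus strand: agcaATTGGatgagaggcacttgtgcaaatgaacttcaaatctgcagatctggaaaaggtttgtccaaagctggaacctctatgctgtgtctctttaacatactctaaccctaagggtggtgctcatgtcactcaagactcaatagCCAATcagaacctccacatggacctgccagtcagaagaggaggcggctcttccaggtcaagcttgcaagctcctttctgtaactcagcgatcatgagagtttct
Gm4724, chr2:175435778-175436027, minus strand: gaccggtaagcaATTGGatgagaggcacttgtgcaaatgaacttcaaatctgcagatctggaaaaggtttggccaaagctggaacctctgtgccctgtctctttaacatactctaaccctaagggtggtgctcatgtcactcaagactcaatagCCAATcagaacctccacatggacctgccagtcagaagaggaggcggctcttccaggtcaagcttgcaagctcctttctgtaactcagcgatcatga
Gm14295, chr2:176798350-176798599, plus strand: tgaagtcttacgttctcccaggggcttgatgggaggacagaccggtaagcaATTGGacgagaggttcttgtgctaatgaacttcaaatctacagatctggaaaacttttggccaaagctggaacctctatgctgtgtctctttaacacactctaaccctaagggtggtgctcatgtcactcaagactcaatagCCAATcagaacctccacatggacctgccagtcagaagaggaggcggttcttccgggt
Gm6710, chr2:175868995-175869244, plus strand: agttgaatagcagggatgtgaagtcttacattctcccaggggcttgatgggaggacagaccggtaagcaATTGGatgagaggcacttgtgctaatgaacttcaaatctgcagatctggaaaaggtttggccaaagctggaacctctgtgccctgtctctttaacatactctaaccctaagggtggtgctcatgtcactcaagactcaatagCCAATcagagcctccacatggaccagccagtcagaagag
Gm14403, chr2:177497976-177498225, plus strand: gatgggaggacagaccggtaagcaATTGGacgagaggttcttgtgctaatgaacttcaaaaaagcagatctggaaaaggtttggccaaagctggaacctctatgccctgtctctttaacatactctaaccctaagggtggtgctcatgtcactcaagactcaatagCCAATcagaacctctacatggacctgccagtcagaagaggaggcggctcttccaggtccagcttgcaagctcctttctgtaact
Gm14325, chr2:177840337-177840586, minus strand: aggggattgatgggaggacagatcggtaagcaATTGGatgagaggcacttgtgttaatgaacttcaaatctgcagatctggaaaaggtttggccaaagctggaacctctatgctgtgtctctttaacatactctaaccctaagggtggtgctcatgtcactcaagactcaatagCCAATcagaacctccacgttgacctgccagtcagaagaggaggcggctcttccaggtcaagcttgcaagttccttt
Zfp931, chr2:178078426-178078675, minus strand: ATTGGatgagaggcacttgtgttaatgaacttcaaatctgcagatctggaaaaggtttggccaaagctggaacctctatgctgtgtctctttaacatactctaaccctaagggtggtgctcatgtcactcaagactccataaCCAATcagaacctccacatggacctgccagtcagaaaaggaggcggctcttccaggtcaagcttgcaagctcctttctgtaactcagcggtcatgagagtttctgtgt

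The upstream sequence of Gm14305 was 97.2% identical to that of Zfp931 over 246 aligned bases, 97.3% to that of Gm14325 over 222 bases and 98.3% to that of Gm4724 over 242 bases. Gm4724 and Gm2026 had the same 250 bases. CCAAT was found on either strand in 21 of the 22 member promoters and in 33.8% of the 32851 RefSeq promoters of the same length. The exception was Gm14444, whose stretch lies inside its GENCODE gene. CCAAT was held once in each orientation by 19 members. A further 4 motifs were searched on both strands, and none was found in a member. TATAAA was in 12.4% of all promoters and the GC box core GGGCGG in 32.7%. The cyclic AMP response element TGACGTCA was in 1.55% and the core of the interferon-stimulated response element in 2.98%. No motif overlapped another in the members. The members had a median of 3 CG dinucleotides in 250 bases, against 6 over all promoters.

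MRL/lpr mice were first compared with MRL/mpj controls to ask which members differ in hippocampal RNA between the strains. In MRL/lpr mice 5 members besides Gm14305 were higher, namely Gm14399, Gm14443, Gm4724, Gm14295 and Gm14296, and 2 were lower, Gm6710 and Gm14403. Gm14305 also met the call rule and is included in the counts of 6 higher members, although its values set the window and its place there is no finding. All 6 lie on the proximal side of the array, and several of them had few or no reads in the controls. On the distal side, where Gm14403 lies, the summed levels of the strains overlapped. A gene was called when its adjusted p was under 0.05 in limma voom with Benjamini-Hochberg adjustment over all genes tested and its change was at least 1.5-fold. Over all 16697 genes tested, 5.79% were called, 3.41% higher and 2.38% lower.

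Of the 30 members, 19 passed the filter on low counts in this comparison, and 11 were too low to be tested. Of the 6 higher members, 5 (Gm14443, Gm4724, Gm14305, Gm14295 and Gm14296) passed only through the MRL/lpr libraries, and Gm6710 only through the MRL/mpj libraries. Such genes had to differ, so the count of calls among members is a description, and for these genes the p given below comes from limma voom without a filter on low counts, adjusted over all genes fitted, 29355 with MRL/lpr and 28893 with MRL/lpr+MSC. Of the 12 members that passed in all 6 libraries, 1 was higher (Gm14399) and 1 lower (Gm14403). The median log2 fold change of the members tested was -0.07, and that of all genes tested was 0.02. Of the 19 members tested, 8 had every MRL/lpr library above every MRL/mpj library and 5 had every one below, and over all genes tested these shares were 19.4% and 18.6%. The 8 include the 5 members that passed only through the MRL/lpr libraries, and those below include Gm6710. As these had to differ, the counts without overlap are descriptions too. With the untested members included, the counts were 12 and 6 of 30.

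**Figure D2:**
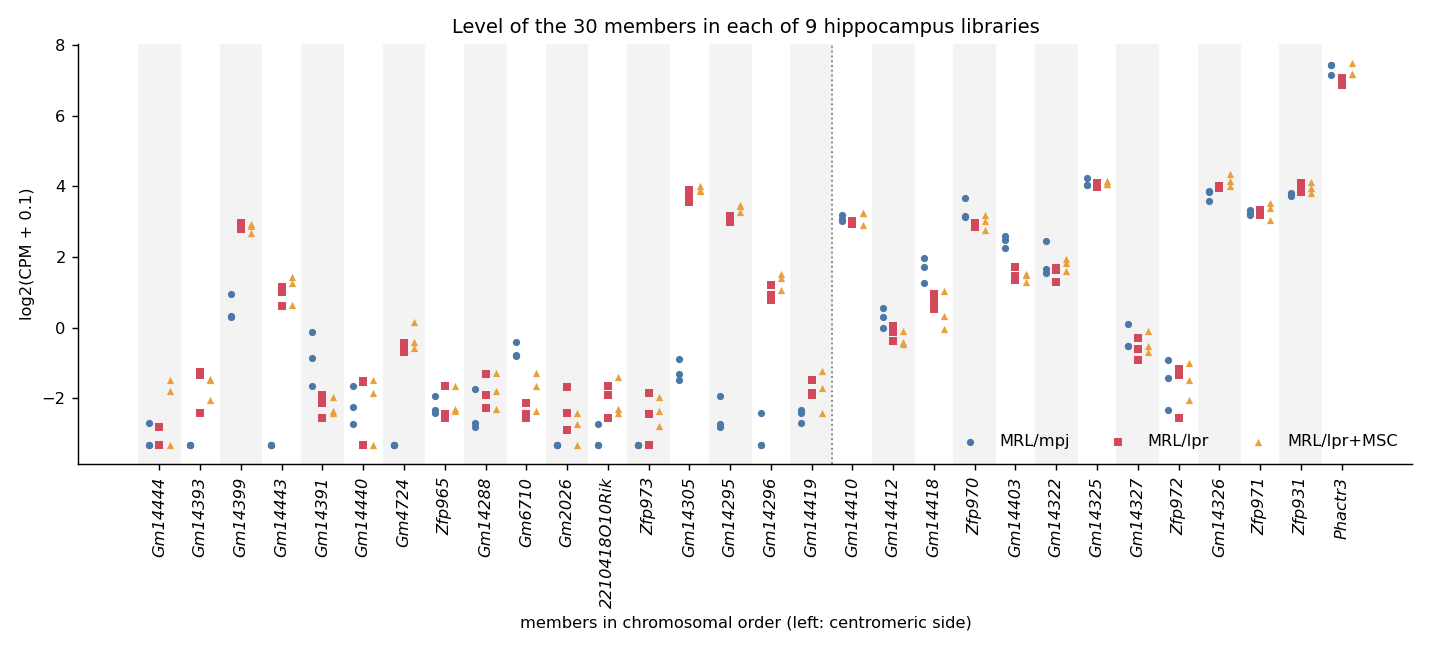
Level of each member as log2(CPM + 0.1) (y axis) in each library, with members in chromosomal order (x axis), circles for MRL/mpj, squares for MRL/lpr and triangles for MRL/lpr+MSC. Left of the dotted line between Gm14419 and Gm14410, 6 members were higher in both lpr groups, and right of it the groups lie close together for most members.

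Gm14305 (ENSMUSG00000078878, chromosome 2, 176708328 to 176721813, plus strand) was read 6, 6 and 8 times in the MRL/mpj libraries, 363, 272 and 347 times in MRL/lpr and 309, 316 and 328 times in MRL/lpr+MSC. The level was 0.331 ± 0.0928 CPM in MRL/mpj, 13.0 ± 1.502 CPM in MRL/lpr and 15.1 ± 0.838 CPM in MRL/lpr+MSC (SD, n = 3). Both lpr groups lay far above the controls in every library, and they overlapped each other. The ratio of CPM was 40.1 for MRL/lpr (95% counting interval 25.8 to 65.9) and 46.3 for MRL/lpr+MSC (29.8 to 76.2). As the window was drawn around Gm14305 for these values, they are a description, and no p is given for it.

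Gm14295 (ENSMUSG00000078877, chromosome 2, 176798612 to 176811223, plus strand), the next gene distally among the members, showed the same steep contrast. Its counts were 1, 1 and 3 in MRL/mpj, 249, 183 and 208 in MRL/lpr and 213, 206 and 244 in MRL/lpr+MSC. The control libraries were at or under 3 counts, and the 6 lpr libraries held between 183 and 249. The ratio was 105 for MRL/lpr (44.6 to 323, counting interval) and 129 for MRL/lpr+MSC (55.0 to 398), with an adjusted p of 2.4e-04 and 1.1e-04 in limma voom without the filter.

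Gm14296 (ENSMUSG00000074527, chromosome 2, 176892509 to 176927809, minus strand) completed a run of 3 adjacent members that were higher. It had 0, 2 and 0 counts in MRL/mpj, 51, 51 and 38 in MRL/lpr and 38, 60 and 58 in MRL/lpr+MSC. All lpr libraries exceeded all controls, with a ratio of 57.2 in MRL/lpr (15.5 to 477) and 75.8 in MRL/lpr+MSC (20.6 to 632). The adjusted p was 0.00139 and 8.3e-04 in limma voom without the filter. Of its stretches, 39.9% occur in 2210418O10Rik, and that gene had 1, 0 and 0 counts in MRL/mpj, 2, 5 and 4 in MRL/lpr and 2, 6 and 2 in MRL/lpr+MSC.

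Gm14443 (ENSMUSG00000078902, chromosome 2, 175166255 to 175175871, minus strand) lies with Gm14399 and Gm4724 near the proximal end. It had no read in the 3 MRL/mpj libraries, 60, 44 and 34 reads in MRL/lpr and 28, 50 and 59 in MRL/lpr+MSC. Against 3 counts per control library, its level was at least 12.3-fold higher in MRL/lpr and at least 14.4-fold higher in MRL/lpr+MSC, with an adjusted p of 2.4e-04 and 2.8e-04 in limma voom without the filter. This is the higher member with the least shared sequence.

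Gm4724 (ENSMUSG00000078897, chromosome 2, 175422300 to 175435807, minus strand) was likewise listed at 0 in all controls. Its counts were 15, 15 and 14 in MRL/lpr and 11, 14 and 23 in MRL/lpr+MSC, at least 3.99-fold and at least 5.06-fold higher than the controls, and the adjusted p was 0.00113 and 0.00119 in limma voom without the filter. Gm2026, which has the same 250 upstream bases, stayed low with 0, 0 and 0 counts in MRL/mpj, 1, 2 and 5 in MRL/lpr and 1, 0 and 2 in MRL/lpr+MSC. Of the stretches of Gm2026, 95.2% recur in other genes, so its counts are uncertain.

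Gm14399 (ENSMUSG00000090093, chromosome 2, 175129493 to 175142012, minus strand) was the one higher member that was well read in the controls. It had 23, 43 and 21 counts in MRL/mpj, 195, 178 and 171 in MRL/lpr and 139, 135 and 172 in MRL/lpr+MSC. The level rose from 1.38 ± 0.406 CPM to 7.23 ± 0.425 CPM in MRL/lpr and 7.03 ± 0.686 CPM in MRL/lpr+MSC (SD, n = 3), with no overlap between controls and lpr libraries. The log2 fold change was 2.38 ± 0.23 (SE) in MRL/lpr and 2.35 ± 0.24 in MRL/lpr+MSC, with a limma voom adjusted p of 0.0037 and 0.00395.

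Gm14403 (ENSMUSG00000094786, chromosome 2, 177498215 to 177509763, plus strand) was lower in both lpr groups. It had 93, 139 and 100 counts in MRL/mpj, 70, 74 and 63 in MRL/lpr and 45, 58 and 63 in MRL/lpr+MSC. The level was 5.35 ± 0.670 CPM in MRL/mpj, 2.76 ± 0.381 CPM in MRL/lpr and 2.603 ± 0.238 CPM in MRL/lpr+MSC (SD, n = 3), and no lpr library reached a control library. The log2 fold change was -0.96 ± 0.19 (SE, limma voom adjusted p = 0.0293) and -1.03 ± 0.18 (adjusted p = 0.0283). This call was fragile. It was lost without MRL/mpj 1, 2 or 3 or MRL/lpr 1 in the first comparison (limma voom adjusted p 0.0751, 0.103, 0.117 and 0.0926), and without MRL/mpj 1, 2 or 3 or MRL/lpr+MSC 2 or 3 in the other (0.0604, 0.0976, 0.108, 0.0736 and 0.0762).

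Gm6710 (ENSMUSG00000078887, chromosome 2, 175869219 to 175881248, plus strand) was the only member of the proximal side called lower in MRL/lpr. It had 13, 11 and 9 counts in MRL/mpj, 2, 3 and 2 in MRL/lpr and 6, 2 and 5 in MRL/lpr+MSC. Every lpr library was below every control, with a log2 fold change of -2.32 ± 0.41 (SE) in MRL/lpr and a ratio of 0.383 (0.185 to 0.747, counting interval) in MRL/lpr+MSC, where it was too low to be tested. In MRL/lpr the adjusted p was 0.029 in limma voom without the filter. With the filter, the call was lost without MRL/mpj 1, 2 or 3 or MRL/lpr 1 (limma voom adjusted p 0.0976, 0.0788, 0.101 and 0.0833). Gm14391, with which it shares 86.1% of its stretches and 243 identical upstream bases, was not tested and had 9, 19 and 4 counts in MRL/mpj, 2, 3 and 4 in MRL/lpr and 3, 2 and 2 in MRL/lpr+MSC.

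**Figure D3:**
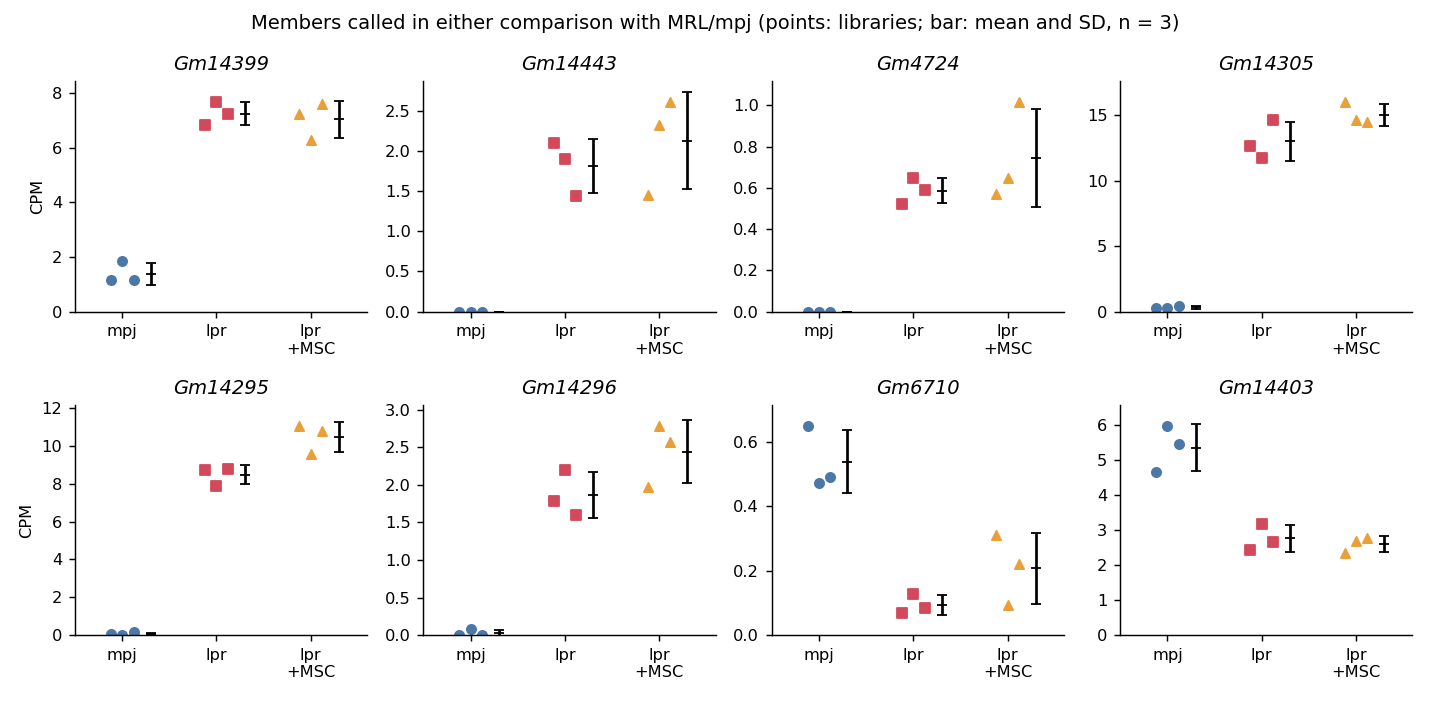
CPM (y axis, from 0) of the 8 members that met the call rule in a comparison with MRL/mpj, Gm14305 included, with 1 point per library in MRL/mpj (mpj), MRL/lpr (lpr) and MRL/lpr+MSC (lpr+MSC) and the mean and SD of 3 libraries as a bar beside them. In each panel all lpr libraries lie on one side of the MRL/mpj libraries.

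The remaining members of the proximal side were close to the limit of detection. Gm14393 was listed at 0 in all MRL/mpj libraries and had 9, 2 and 7 counts in MRL/lpr and 5, 3 and 6 in MRL/lpr+MSC, at least 1.58-fold and at least 1.502-fold higher. Gm14419 had 2, 2 and 1 counts in MRL/mpj, 5, 6 and 4 in MRL/lpr and 4, 7 and 2 in MRL/lpr+MSC, and its groups overlapped in the treated mice. Zfp973, which overlaps the much more abundant Gm14305 in part, was at 0 in the controls and between 0 and 5 counts in the lpr libraries. Where in the gene these reads lie is not known. Gm14440, Zfp965, Gm14288 and Gm14444 stayed between 0 and 7 counts in every library, with overlapping groups in both comparisons. At this depth no difference in them was detectable.

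On the distal side, beginning at Gm14410, 10 of the 11 zinc finger members tested were not called in either comparison with the controls. Gm14325, the most abundant of them per kilobase, had 324, 432 and 302 counts in MRL/mpj, 446, 383 and 399 in MRL/lpr and 339, 360 and 373 in MRL/lpr+MSC. Its log2 difference from the controls was -0.07 (95% interval -0.30 to 0.16) in MRL/lpr and -0.01 (-0.24 to 0.21) in MRL/lpr+MSC. Zfp931, whose upstream sequence is so close to that of Gm14305, had 281, 303 and 249 counts in MRL/mpj, 425, 332 and 401 in MRL/lpr and 331, 302 and 350 in MRL/lpr+MSC. Its log2 difference was 0.18 (-0.07 to 0.43) and 0.20 (-0.06 to 0.45), with all MRL/lpr libraries above the controls in CPM and an overlap in MRL/lpr+MSC.

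A further 3 distal members are well read. Gm14326 was at 13.5 ± 1.33 CPM in MRL/mpj, 15.7 ± 0.315 CPM in MRL/lpr and 17.9 ± 2.04 CPM in MRL/lpr+MSC (SD, n = 3), Zfp971 at 9.43 ± 0.429, 9.44 ± 0.520 and 9.98 ± 1.68 CPM, and Gm14410 at 8.48 ± 0.507, 7.87 ± 0.302 and 8.67 ± 1.16 CPM. None of the 3 was called in a comparison. A run of members next to Gm14410 leaned the other way. Gm14418 had a log2 fold change of -0.94 ± 0.26 (SE) in MRL/lpr and -1.23 ± 0.34 in MRL/lpr+MSC, with every lpr library below the controls and a limma voom adjusted p of 0.0694 and 0.0882. Gm14412 stood at -0.51 and -0.67 and Zfp970 at -0.43 and -0.35 on the same scale, and neither was called (limma voom adjusted p 0.283 and 0.229, and 0.15 and 0.328).

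Phactr3 was read far more than the zinc finger members, at 162 ± 17.9 CPM in MRL/mpj, 126 ± 8.73 CPM in MRL/lpr and 157 ± 19.6 CPM in MRL/lpr+MSC (SD, n = 3). All MRL/lpr libraries were below the controls, by 0.36 ± 0.10 (SE) on the log2 scale, and the limma voom adjusted p was 0.0697. In MRL/lpr+MSC the groups overlapped.

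Split at Gm14410, a border set after the values were seen, the array fell into unlike parts. The 17 proximal members summed to 3.10, 3.95 and 2.88 CPM in the MRL/mpj libraries, 33.9, 33.5 and 36.0 CPM in MRL/lpr and 40.2, 37.7 and 40.7 CPM in MRL/lpr+MSC. The 12 distal zinc finger members summed to 79.5, 94.3 and 85.3 CPM in MRL/mpj, 79.2, 81.8 and 81.7 CPM in MRL/lpr and 91.1, 83.9 and 82.6 CPM in MRL/lpr+MSC. The proximal sums of the strains did not overlap, and the distal sums did. The proximal sums include Gm14305, whose values set the window. Its mean was 0.331 CPM in MRL/mpj, 13.0 CPM in MRL/lpr and 15.1 CPM in MRL/lpr+MSC, so the contrast of the sums is in part that of Gm14305. Of 7 proximal members tested in MRL/lpr, 6 were higher, Gm14305 included, and 1 was lower. Of 11 distal ones, 0 were higher and 1 was lower. Over all genes tested, 3.41% were higher and 2.38% lower. Of the 7 proximal members, 5 passed the filter only through the MRL/lpr libraries and Gm6710 only through the MRL/mpj libraries, so these had to differ. The sums and the counts of calls by side are descriptions and have no test.

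**Figure D4:**
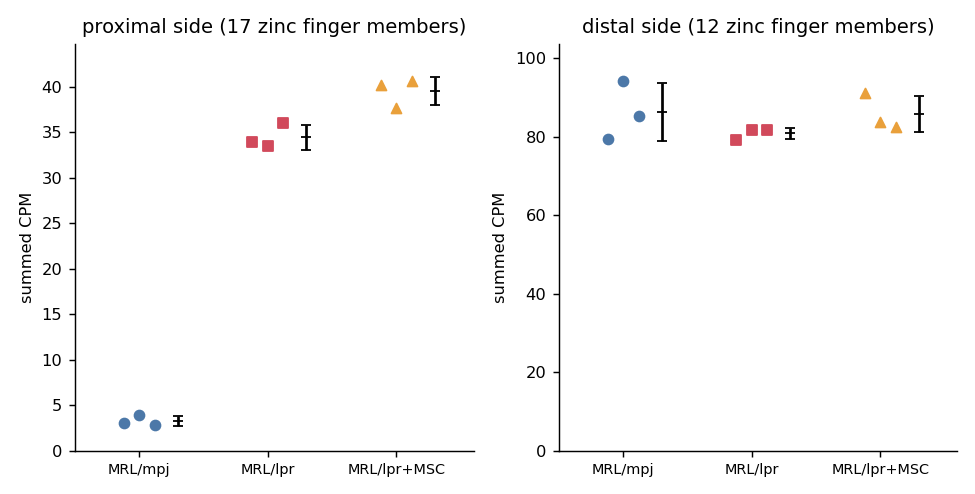
Summed CPM (y axis, from 0) of the 17 proximal and the 12 distal zinc finger members in each library, by group (x axis), with the mean and SD of 3 libraries as a bar. The proximal sum, Gm14305 included, lies between 2.88 and 3.95 CPM in MRL/mpj and between 33.5 and 40.7 CPM in the lpr libraries. The distal sum lies between 79.2 and 94.3 CPM in all groups.

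Per kilobase of gene, the order of the members changed with the strain. In the deposited FPKM values, which take gene length into account, Gm14305 was the member with rank 16 in MRL/mpj at 0.133 ± 0.0382 FPKM and rank 5 in both MRL/lpr, at 5.18 ± 0.621 FPKM, and MRL/lpr+MSC, at 6.02 ± 0.381 FPKM (SD, n = 3). In MRL/lpr it stood between Gm14326 at 5.46 ± 0.113 FPKM and Zfp971 at 4.37 ± 0.226 FPKM, and it differed from the former by less than its own SD. Gm14295 moved from 0.0244 ± 0.0194 FPKM to 2.38 ± 0.149 and 2.97 ± 0.249 FPKM. Phactr3, Gm14325, Zfp931 and Gm14326 took ranks 1 to 4 in all groups, with Gm14325 at 10.6 ± 0.777, 10.03 ± 0.428 and 10.47 ± 0.434 FPKM.

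The comparison of MRL/lpr+MSC mice with MRL/mpj controls asked whether the contrast is also present in treated mice. Gm14305 and the 5 other members that were higher in MRL/lpr mice were higher here too, and Gm14403 was again lower, as given gene by gene above. In this comparison 18 members were tested, and 3.43% of all 16196 genes were called, 1.93% higher and 1.5% lower. Gm14443, Gm4724, Gm14305, Gm14295 and Gm14296 again passed the filter only through the lpr libraries. The median log2 fold change was 0.04 over the members tested and 0.01 over all genes. Of the 18 members tested, 7 had every MRL/lpr+MSC library above every control and 3 every one below, against 15.2% and 14.4% of all genes tested. The 7 include the members that passed only through the lpr libraries and had to differ, so this count is a description. With the untested members, the counts were 10 and 5 of 30.

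MRL/lpr+MSC and MRL/lpr mice were then compared directly to see whether the array differs with the treatment. No member was called among 18 tested, and limma voom called 0.0% of 16758 genes. At an unadjusted p under 0.05, 647 genes and 2 members, Gm14295 and Phactr3, passed. Limma-trend and a fit with library quality weights also called 0 genes. Gm14305 differed by 0.22 on the log2 scale (95% interval -0.07 to 0.51), Gm14443 by 0.22 (-0.48 to 0.92) and Gm14399 by -0.04 (-0.36 to 0.29). The members tested had a median of 0.15, and all genes a median of -0.00. Gm14295, Gm14326 and Phactr3, 3 of the 18 members tested, had every treated library above every MRL/lpr library, a pattern found in 4.27% of all genes tested, and no tested member had every one below (5.71%).

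The genes on either side of the array showed how far the contrast extends along the chromosome. Among 40 protein-coding genes within 5 Mb below the window, 28 were tested in MRL/lpr mice and 2 were higher, Zbp1, a sensor of Z-form nucleic acids, by 4.38 ± 1.00 (SE, limma voom adjusted p = 0.0446) and Zfp217, a transcriptional regulator, by 1.07 ± 0.20 (adjusted p = 0.0257) on the log2 scale. In MRL/lpr+MSC mice 0 of 27 were called. Zbp1 was not among the genes tested there, and Zfp217 stood at 0.51. Above the window, 0 of 53 and 0 of 51 tested genes were called among the 65 up to the chromosome end. Over all genes tested, 5.79% were called in MRL/lpr and 3.43% in MRL/lpr+MSC. The median log2 fold change was 0.03 below and 0.06 above the window in MRL/lpr, and -0.02 and 0.03 in MRL/lpr+MSC.

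**Figure D5:**
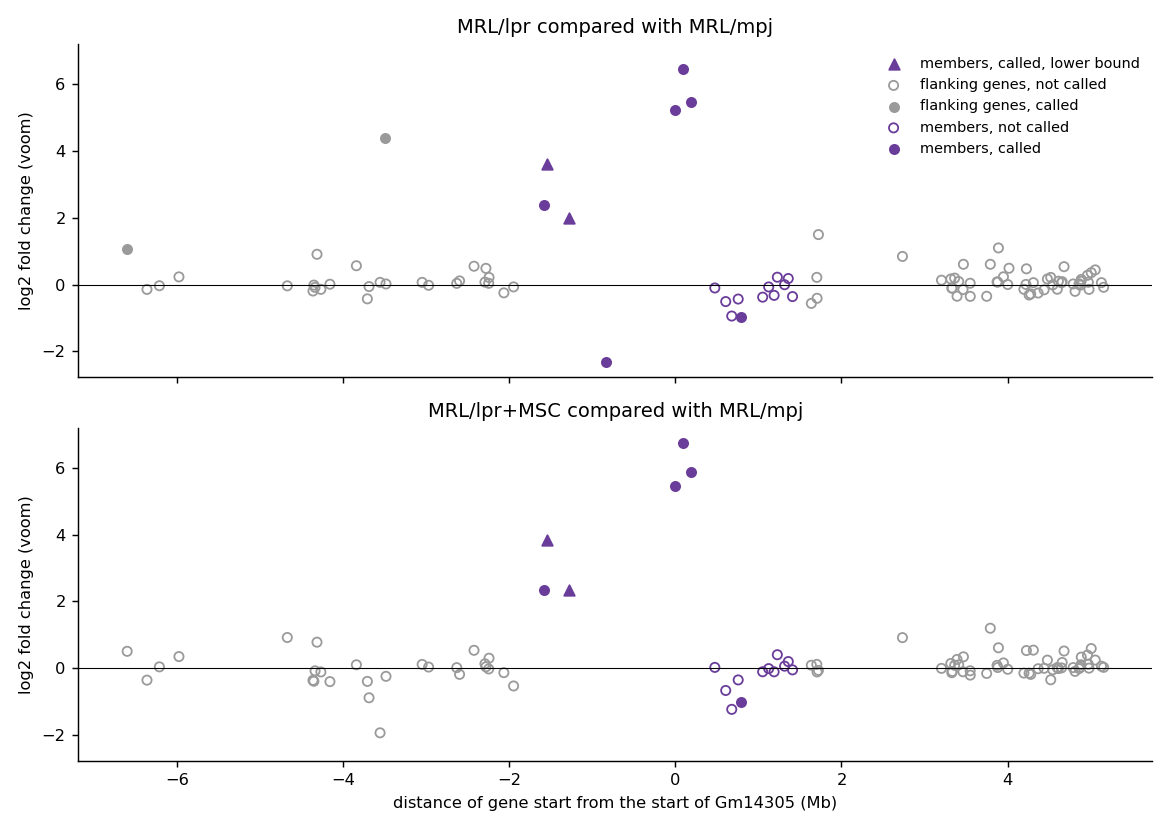
Log2 fold change (y axis) of the members and of the flanking protein-coding genes tested, by distance of the gene start from that of Gm14305 in Mb (x axis), in MRL/lpr (upper) and MRL/lpr+MSC (lower) compared with MRL/mpj. Filled symbols are called genes, and triangles are Gm14443 and Gm4724 at their lower bounds, since their controls had no read. The 6 higher members lie between -1.58 and 0.18 Mb.

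Genes in the window of other biotypes, 42 in all, were too low to be tested against MRL/mpj. Of these 42, 6 had every MRL/lpr library above the controls and 1 every one below, against 19.4% and 18.6% of all genes tested. With MRL/lpr+MSC the counts were 2 and 0, against 15.2% and 14.4%. As none of the 42 was tested against MRL/mpj, the shares of tested genes are not a like measure for them. Gm14411, an unprocessed pseudogene, was listed at 0 in all MRL/mpj libraries and had 10, 7 and 7 counts in MRL/lpr and 11, 6 and 13 in MRL/lpr+MSC, and it was chosen for mention after its values were seen. Zinc finger genes elsewhere in the genome moved in both directions. Of 375 tested in MRL/lpr mice, 8 were higher (2.13%) and 8 lower (2.13%), against 3.41% and 2.38% of all genes tested. Of 374 in MRL/lpr+MSC mice, 4 were higher (1.07%) and 7 lower (1.87%), against 1.93% and 1.5%. Their median log2 fold changes were 0.07 and 0.02. The largest change among them in MRL/lpr was that of Zfp429, at -4.85 ± 0.59 (SE, limma voom adjusted p = 0.00819), followed by Zfp459, at -2.23 ± 0.28 (adjusted p = 0.00888).

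The machinery that KRAB zinc finger proteins recruit was examined with a list of 28 corepressor and silencing genes. Among them were Trim28, the histone methyltransferase gene Setdb1, heterochromatin proteins, histone deacetylases and DNA methyltransferases. The list also held the zinc finger genes Zfp57, Zfp445, Zfp809 and Zfp932, which are not part of the recruited machinery. These genes are also counted with the zinc finger genes elsewhere in the genome. All 28 were tested and 0 were called in each of the 3 comparisons. Cbx1, which encodes a heterochromatin protein, passed on p alone in MRL/lpr, at 0.35 ± 0.07 (SE, limma voom adjusted p = 0.0352) on the log2 scale, a change under 1.5-fold. Their median log2 fold change was 0.04 in MRL/lpr and 0.06 in MRL/lpr+MSC compared with MRL/mpj, and -0.00 between the lpr groups. Of the 28, 5 had every MRL/lpr library above the controls and 2 every one below, against 19.4% and 18.6% of all genes tested. With MRL/lpr+MSC the counts were 3 and 2, against 15.2% and 14.4%.

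Outside the window, the 5 genes whose log2 CPM over the 9 libraries was most like that of Gm14305 were all annotated as processed pseudogenes. They were Gm14287 on chromosome 2 (Pearson r = 0.998), Tcea1-ps1 on chromosome 15 (0.997), Rpl14-ps1 on chromosome 7 (0.997), Rps2-ps10 (0.996) and Gm4366 on chromosome 7 (0.995). With 9 libraries in 3 groups, these values mainly describe the step between MRL/mpj and the lpr groups. Rpl14-ps1, a copy of a ribosomal protein gene, rose from 3.15 ± 0.217 CPM in MRL/mpj to 106 ± 2.81 CPM in MRL/lpr and 107 ± 5.71 CPM in MRL/lpr+MSC (SD, n = 3). Gm14287 went from 0.113 ± 0.0149 CPM to 23.0 ± 0.996 and 25.7 ± 3.86 CPM.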

How the data were processed

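Hippocampal RNA-seq libraries of MRL/mpj, MRL/lpr and MSC-treated MRL/lpr mice were used, 3 per group, with groups taken from the sample labels. Per the study's methods, the authors aligned reads with STAR to GRCm38, counted them per GENCODE gene with HTSeq and deposited raw counts for 47643 genes in a file of the whole series, and FPKM per library, computed by the authors from the count and gene length. The labels' processing notes name TopHat2 in place of STAR. The handling of reads with several matches and the strand setting were not given in the sources used here. All 9 count columns were matched to a sample, and 47224 genes matched GENCODE M21.

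The deposited counts could not be registered as counts because of their column separator, so limma voom (limma 3.58.1, R 4.3.3, robust variance) replaced the quasi-likelihood test planned first, with TMM scaling and p-values adjusted by Benjamini-Hochberg across every tested gene. A gene was tested with about 10 counts in at least 3 libraries and 15 in all. Each comparison used its own 6 libraries. CPM were scaled by TMM. Counting intervals (95%, exact) and the floor of 3 counts cover counting error only. The fit was tested on simulated data. The members, lists and tests were chosen with earlier results of these data known. Members could all be named, and those called in a comparison with the controls, with Gm14305, were given in every library. Genes outside the members were named where a list held them and they were called in MRL/lpr, at most 5 per list by absolute log2 fold change, besides the 5 most like Gm14305 (log2(CPM + 0.5)). Sequences came from GENCODE M21 and RefSeq (GRCm38.p6), and upstream sequences were aligned without cost for end gaps. Alternatives are given in the closing section.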

Additional observations from a re-analysis of the deposited data

How the results depend on the processing

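The number of members called higher compared with MRL/mpj was 6 in MRL/lpr and 6 in MRL/lpr+MSC under median-of-ratios scaling, 1 fit of all 9 libraries, the replicate block, and limma-trend and library quality weights, both chosen after seeing the data, and 6 to 6 when each library was left out, 7 without a filter on low counts, where Gm14393 was added, and 5 with a minimum of 1 CPM in 3 libraries, where Gm4724 was no longer tested. Members called lower in MRL/lpr numbered 2, and 1 with the minimum of 1 CPM, where Gm6710 was no longer tested, and 1 with all 9 libraries in 1 fit. They numbered 0 to 2 when a library was left out, and 0 without MRL/mpj 1, 2 or 3 or MRL/lpr 1. In MRL/lpr+MSC, 1 member was lower, and 0 to 1 when a library was left out. Over all genes, the count of 967 called in MRL/lpr became 2065 with library quality weights and 165 to 1695 when a library was left out (253, 260 and 165 without MRL/mpj 1, 2 and 3, 421, 1695 and 1510 without MRL/lpr 1, 2 and 3). The count of 556 in MRL/lpr+MSC became 1177 with library quality weights and 193 to 1514 when a library was left out (193, 201 and 206 without MRL/mpj 1, 2 and 3, 1514, 359 and 276 without MRL/lpr+MSC 1, 2 and 3). Between the lpr groups the count stayed 0 in every alternative. There, 2 members with small differences changed sign, Gm14403 to 0.0387 with library quality weights, 0.0349 without MRL/lpr 2 and 4.1e-04 without MRL/lpr+MSC 1 (-0.154 to 0.0349 when a library was left out), and Gm14399 to 0.0493 without MRL/lpr+MSC 2 (-0.0974 to 0.0493). The cause was not tested. Of the values of single members under the alternatives, 263 kept their call and direction, 14 lost the call and 4 changed sign. DESeq2 was not run.

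No source used here says whether the replicate numbers pair the mice. Between MRL/lpr and MRL/mpj the deviations of same-numbered libraries correlated at -0.02, 0.13 and 0.05 across genes, and between MRL/lpr+MSC and MRL/mpj at -0.06, 0.13 and 0.22, and between MRL/lpr+MSC and MRL/lpr at -0.21, 0.25 and 0.40, with 2 of 3 numbers correlating best with their own in each. With the replicate block 0 members were lower and 280 genes were called in MRL/lpr+MSC, with the limma voom adjusted p of Gm14403 at 0.0747, and 1333 genes in MRL/lpr. At the lowest depth, 3 counts equal 0.163 CPM, and members below this level cannot be ranked.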
